A study of Homo sapiens with 4 samples.

Results

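The MYC, MAX and MXD network is a set of transcription factors that share MAX or its relative MLX as a binding partner. It was described here through 10 genes: MYC, MYCN, MAX, MXD1, MXD3, MXD4, MXI1, MNT, MLX and MGA. Their probe sets, the groups of array probes that report 1 transcript together, were taken by symbol where the platform annotation gave that symbol alone. Of the 10 genes, 9 had such a probe set, with 33 probe sets between them, out of 19775 genes and 41091 probe sets named in all. The probe sets of MXD4 carried a further symbol, MIR4800, and MXD4 levels were not analysed here. Probe sets entered the comparisons where at least 1 array gave a signal of 56.4, the median over all probe sets and arrays. That left 22 of the 33 probe sets, with at least 1 for each of the 9 genes, and 13717 genes in all. The other 11 were below this limit on every array.

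The cells were Jurkat, an established human leukaemia line of T cell origin. A line carrying a short hairpin RNA against IKBKE, the gene of the kinase IKK epsilon, is called shIKKE. Its counterpart, described in different labels as holding a control hairpin or a vector, is called the control line. Each line was given solvent, or PMA at 10 ng/ml with ionomycin at 0.5 uM for 3 h, and each of the 4 groups was measured on 1 array. The sample titles alone tell stimulated from solvent samples, as the treatment described in the labels does not vary. PMA switches on protein kinase C and ionomycin raises intracellular calcium, a pair of signals that stand in for the T cell receptor. With 1 array per group there was no replicate error, and a difference between single arrays has no test. The labels do not say how many clones or cultures either line represents.

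MYC family proteins bind DNA only as dimers with MAX, preferring the E box, CACGTG, and raise transcription of genes for ribosome production, nucleotide synthesis and growth. The MXD proteins, MXI1 and MNT also dimerise with MAX at E boxes, and recruit SIN3 and histone deacetylases to repress transcription. MGA, a very large protein with a T-box as well as the dimerisation domain, pairs with MAX in a repressive Polycomb complex. MLX is the MAX-like partner of the Mondo proteins MLXIP and MLXIPL, which respond to sugar phosphates. In T cells, MYC is an early gene of receptor signalling and drives the metabolic change that precedes division, and in T cell leukaemia it is a well known target of Notch.

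Start-site windows of 250 bases before the start, from RefSeq on GRCh38.p14, were matched by symbol for 9 of the 10 members. The exception was MYC. Such a window held the E box, CACGTG, in 6.34% of all 35116 windows, and among the members in MNT, MLX and MXD4. The 4 windows below are shown because MNT and MLX carry the network's own binding letters, and because MXD3 and MYCN, with MYC, differed most between arrays. Capitals mark CACGTG in MNT and MLX, the AP-1 letters TGAGTCA in MXD3, and in MYCN a run holding overlapping E2F letters, TTTGGCGC and GCGCGAAA, and the NFAT core TGGAAA.
MNT, chr17:2401061-2401310, minus strand: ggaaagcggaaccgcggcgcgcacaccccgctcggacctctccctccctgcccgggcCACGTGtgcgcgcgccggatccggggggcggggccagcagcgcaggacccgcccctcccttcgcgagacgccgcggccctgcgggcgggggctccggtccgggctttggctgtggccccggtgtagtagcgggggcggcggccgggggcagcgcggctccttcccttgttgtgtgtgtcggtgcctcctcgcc
MLX, chr17:42566850-42567099, plus strand: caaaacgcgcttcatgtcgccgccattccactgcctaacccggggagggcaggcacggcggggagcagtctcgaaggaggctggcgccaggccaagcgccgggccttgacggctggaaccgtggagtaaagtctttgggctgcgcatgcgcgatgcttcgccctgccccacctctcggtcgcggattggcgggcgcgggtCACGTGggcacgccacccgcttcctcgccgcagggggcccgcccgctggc
MXD3, chr5:177312753-177313002, minus strand: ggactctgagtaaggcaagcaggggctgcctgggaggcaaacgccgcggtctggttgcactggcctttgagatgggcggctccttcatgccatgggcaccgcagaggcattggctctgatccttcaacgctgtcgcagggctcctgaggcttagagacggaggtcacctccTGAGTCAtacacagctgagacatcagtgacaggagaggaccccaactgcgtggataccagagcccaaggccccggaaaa
MYCN, chr2:15940300-15940549, plus strand: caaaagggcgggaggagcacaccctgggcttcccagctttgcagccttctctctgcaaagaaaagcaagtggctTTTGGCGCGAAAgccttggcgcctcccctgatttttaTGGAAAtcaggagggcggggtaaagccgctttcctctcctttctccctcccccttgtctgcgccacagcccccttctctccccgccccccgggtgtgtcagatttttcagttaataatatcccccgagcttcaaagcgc
The E box of MNT lies from -193 to -188 relative to the start site, and that of MLX from -50 to -45. The AP-1 letters of MXD3 lie from -79 to -73. They were searched as TGACTCA on both strands, which 4.2% of all windows held. In MYCN the E2F letters span -176 to -165, and the NFAT core lies from -139 to -134. The E2F letters, searched as TTTCGCGC and TTTGGCGC on both strands, were in 0.439% and 0.55% of all windows, and the NFAT core was in 18.0%. MXD1 and MXI1 held the NFAT core as well, and MGA held TTTGGCGC and the E box variant CGCGTG. That variant, searched as CACGCG on both strands, was in 9.72% of windows. The CRE letters TGACGTCA, in 1.65% of windows, were in none of the members' windows, and MAX held none of the letters searched. These are matches of letters, and binding was not measured.

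The arrays had been scaled to 1 trimmed mean, 500.07 on each, while their median signals ranged from 48.8 to 69.1. IKBKE, the hairpin's target, read 340 with solvent and 520 with stimulation in control cells, against 180 and 248 in shIKKE cells, on the brighter of its probe sets. The other IKBKE probe set read 218 and 311 against 287 and 280, which is not lower with solvent. All 11 of 11 T cell markers passed the filter, with a summed signal from 72871 to 80540. Markers of other cells were far dimmer: 4 of 7 B cell markers passed, with a summed signal of 745 to 841, and no other list (myeloid, NK, erythroid or epithelial) summed above 377. The solvent arrays differed from each other in early response genes. EGR1 read 9953 with solvent and 23198 with stimulation in control cells, and 1035 and 18503 in shIKKE cells. FOSB read 1364 and 272 in control cells, and 7.38 and 302 in shIKKE cells. Which of the solvent arrays is unusual cannot be told from single arrays. The control solvent array is the baseline of stimulation in control cells and of the line difference with solvent, so those comparisons share it. Its part in the members' differences was not tested. In a bulk extract, a smaller share of expressing cells and less RNA per cell cannot be told apart.

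Values below are MAS5 signals, and differences are on the scale of log2(signal + 14.1), which understates changes of dim genes. Where a pair of signals is given for a line, solvent comes first and stimulation next. Where 4 are given, the pair of the control line precedes that of shIKKE. Each gene is represented by its brightest probe set, and counts are of genes differing 2-fold or more. Stimulation in control cells left 1 of the 9 members at least 2-fold higher, against 7.57% of all 13717 genes, and 2 lower, against 6.44%. In shIKKE cells 1 member was higher, against 10.3% of all genes, and 1 lower, against 2.68%. The split of all genes depends on the scaling. In control cells 1039 were higher and 884 lower as deposited, 838 and 1122 after quantile normalization, and 683 and 1706 after setting each array to one median signal. In shIKKE cells the counts were 1417 and 368 as deposited, 1018 and 689 after quantile normalization, and 826 and 1380 with one median signal. That last scaling moved the median difference of all genes from -0.07 to -0.34 in control cells and from -0.01 to -0.47 in shIKKE cells. The members' medians were -0.01 and -0.2 in these comparisons. Above 0 were 4 of 9 members in control cells and 2 of 9 in shIKKE cells, so members lay on both sides of 0.

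**Figure D1:**
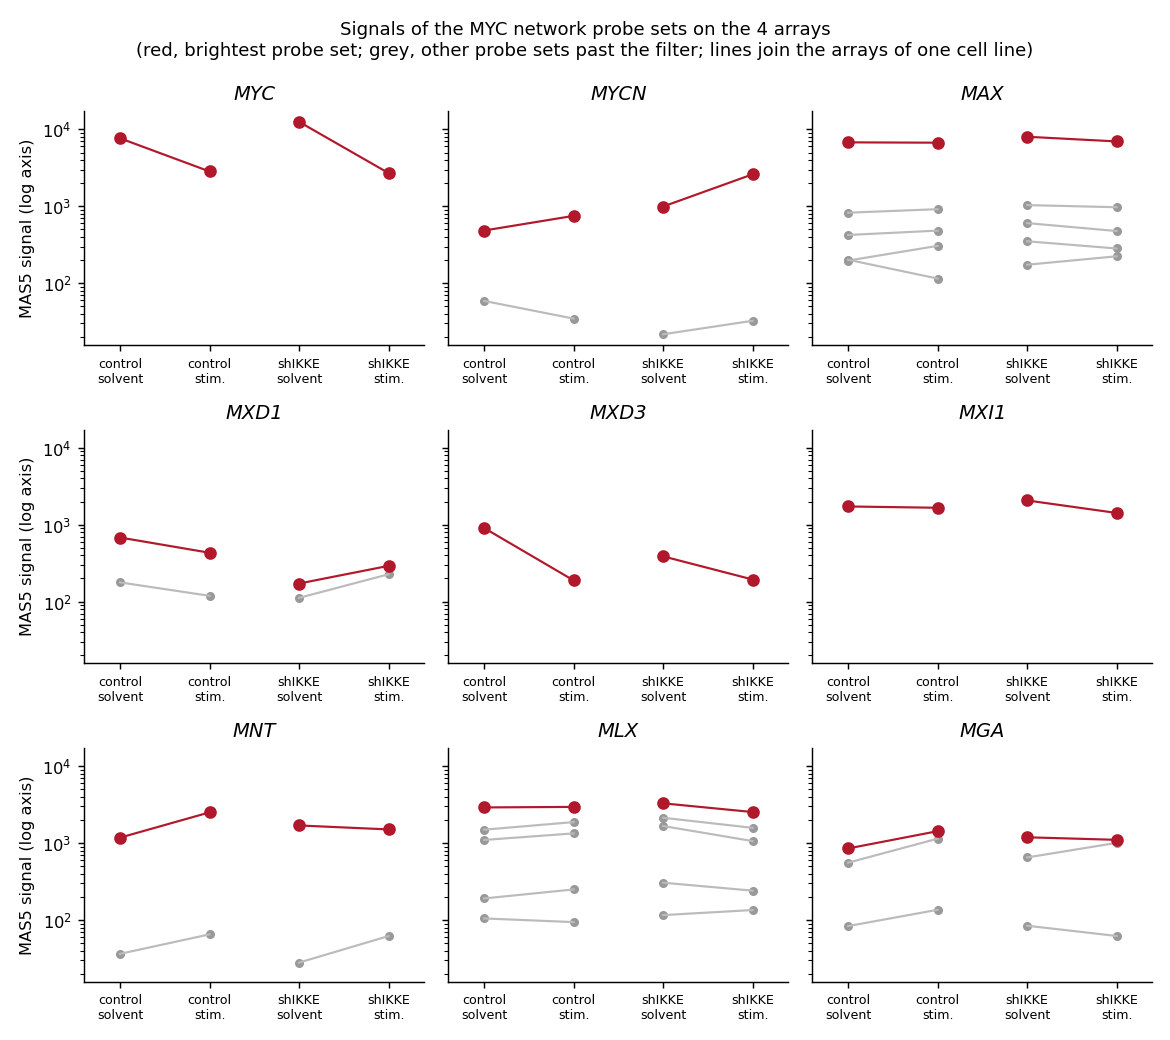
MAS5 signal (log axis) of every probe set past the filter for the 9 measured members, 1 panel per gene, over the 4 arrays; red points are the brightest probe set, grey points the others, and lines join the arrays of 1 cell line. MYC ends near the same level in both stimulated arrays (2839 and 2702) from different solvent levels, and MYCN climbs from 484 to 2606 across the panel.

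MYC was the 1 member at least 2-fold lower with stimulation in both lines. Its 1 probe set, 202431_s_at, read 7663 with solvent and 2839 with stimulation in control cells, and 12539 and 2702 in shIKKE cells. Both stimulated arrays were below both solvent arrays, so the treatments did not overlap. The difference was -1.43 in control cells, a 2.69-fold lower level, and -2.21 in shIKKE cells, 4.62-fold lower. MYC ranked 330th from the lowest of 13717 genes in control cells and 13th in shIKKE cells. Bright genes seldom differed this much: of the 1372 genes in the brightest of 10 level classes, 0.656% were at least 2-fold lower in control cells and 0.219% in shIKKE cells. At least 2-fold lower in both lines were 1 of 9 members and 0.773% of all genes. Between lines, MYC was higher in shIKKE cells with solvent by 0.71 and almost level with stimulation, at -0.07.

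MYCN, the family member best known from neuroblastoma, ran the other way. Its brightest probe set, 209757_s_at, read 484 and 751 in control cells and 993 and 2606 in shIKKE cells. Each stimulated array was above its own solvent array, by 0.62 in control cells and by 1.38, or 2.6-fold, in shIKKE cells. Both shIKKE arrays were above both control arrays, by 1.01 with solvent and by 1.78, or 3.42-fold, with stimulation. MYCN ranked 582nd from the highest of all genes in the line comparison with solvent and 236th with stimulation. It was the 1 member at least 2-fold higher in shIKKE cells in both treatments, where 0.751% of all genes were, while 0 of 9 members were lower in both, against 0.612% of genes. This pattern rests on 1 probe set. The other MYCN probe set past the filter, 242026_at, was dim, at 58.9 and 34.7 in control cells and 21.7 and 32.5 in shIKKE cells. It passed the filter through the control solvent array alone, where it was highest. Its line differences were -1.03 with solvent, a direction that this filter favours, and -0.07 with stimulation. The MYCN probe sets below the filter peaked on different arrays. Of these, 209756_s_at read 52.7 on the stimulated shIKKE array and at most 12.6 on the others. In contrast, 234253_at was highest on the shIKKE solvent array, at 39.3, and 234169_at on the stimulated control array, at 34.9. The control solvent array was highest for 234872_at, at 29.2. MYCN had 10 probe sets in all, of which 8 were below the filter.

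MYCL, a MYC family member first found in lung cancer and one of the related network proteins listed beside the members, was dimmer. It read 301 and 130 in control cells and 285 and 104 in shIKKE cells on the brighter of its probe sets. Like MYC, MYCL was lower in both stimulated arrays than in either solvent array, with differences of -1.13 and -1.34. Its other probe set gave -1.07 in control cells and 0.31 in shIKKE cells, so the probe sets part in shIKKE cells. That probe set passed the filter through the control solvent and shIKKE stimulated arrays alone, which favours these directions.

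The shared partner MAX was bright and almost level. Its brightest probe set read 6780 and 6713 in control cells and 8019 and 6971 in shIKKE cells. The stimulation differences were -0.01 and -0.2 and the line differences 0.24 with solvent and 0.05 with stimulation. The near-zero values change sign with the scaling: stimulation in control cells gave 0.05 after quantile normalization and 0.01 after cyclic loess, and the line difference with stimulation gave -0.15 with one median signal. All 5 MAX probe sets passed the filter, and none of them differed by 2-fold in stimulation or between lines. The most divergent, 214108_at, read 202, 115, 174 and 224 in the same order of arrays, a stimulation difference of -0.74 in control cells and 0.34 in shIKKE cells.

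**Figure D2:**
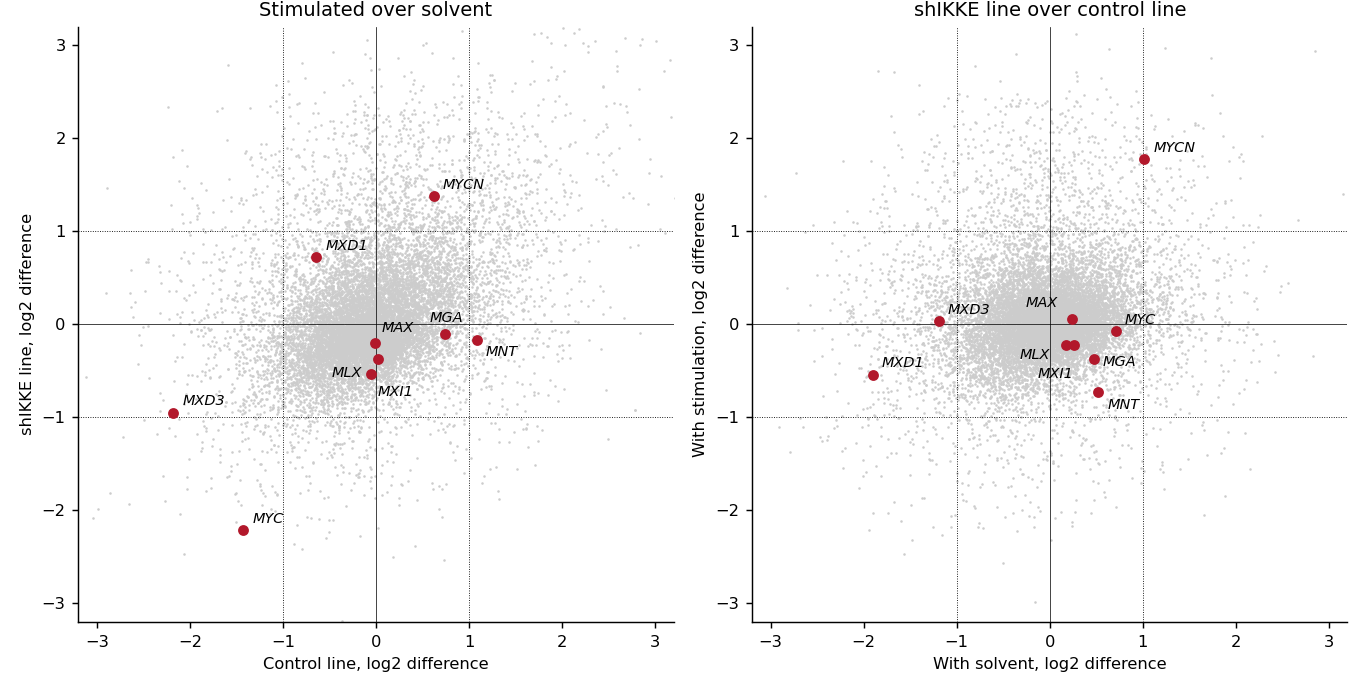
Log2 differences of the 9 members (red) over all genes past the filter (grey): left, stimulated over solvent in the control line (x) against shIKKE cells (y); right, shIKKE over control line with solvent (x) against stimulation (y). Dotted lines mark 2-fold, and 65 genes on the left and 9 on the right lie outside the axes. MYC lies past 2-fold on both axes of the left panel at -1.43 and -2.21, and MYCN past 2-fold on both axes of the right panel at 1.01 and 1.78; all 4 arrays enter both panels, so the panels are not independent.

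Among the MAX-dependent repressors, MXD3 followed the direction of MYC. MXD3, the MXD protein most often linked to proliferating rather than differentiating cells, read 907 with solvent and 189 with stimulation in control cells. In shIKKE cells it read 388 and 194. As for MYC, the stimulated levels were alike in the lines and the solvent levels were not, but here control cells had the higher solvent level. The stimulation difference was -2.18 in control cells, 4.53-fold lower and 47th from the lowest of all genes, and -0.95 in shIKKE cells. The line difference with solvent was -1.2, 2.29-fold lower in shIKKE cells, and with stimulation 0.03, or -0.16 with one median signal. The value in shIKKE cells lay just short of 2-fold, and passed it after quantile normalization, at -1.16. Set against the shIKKE solvent array, the stimulated control array gave -0.98 for MXD3. MXD3 had 1 probe set.

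MXD1, a repressor known from differentiating myeloid and epithelial cells, moved apart in the lines. It read 682 with solvent and 432 with stimulation in control cells, and 172 and 292 in shIKKE cells. Both control arrays were above both shIKKE arrays. The line difference was -1.9 with solvent, 3.74-fold lower in shIKKE cells and 133rd from the lowest of all genes, and -0.54 with stimulation. Stimulation gave -0.64 in control cells and 0.72 in shIKKE cells, neither past 2-fold, and the responses differed by 1.36. The other MXD1 probe set past the filter, 228846_at, read 178 and 119 in control cells and 112 and 227 in shIKKE cells. It gave the same directions for stimulation, -0.53 and 0.93, but its line difference with solvent was -0.6 and with stimulation 0.86. The last of the MXD1 probe sets was below the filter. These differences rest in part on which solvent array is the baseline: the stimulated control array was 1.26 above the shIKKE solvent array.

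MXI1, a repressor related to the MXD proteins, read 1727 and 1661 in control cells and 2068 and 1422 in shIKKE cells. Its differences, -0.06 and -0.54 for stimulation and 0.26 and -0.22 between lines, were all within 2-fold.

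With solvent, 1 of 9 members was at least 2-fold higher in shIKKE cells (MYCN), against 4.34% of all genes, and 2 were lower (MXD1 and MXD3), against 6.68%. With stimulation MYCN alone was higher, against 5.99% of genes, and 0 members were lower, against 2.37%. All genes split into 822 higher and 325 lower here, and into 680 and 392 after quantile normalization, or 618 and 457 with one median signal.

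MNT, the most widely expressed MAX-dependent repressor, was higher with stimulation in control cells and not in shIKKE cells by the 2-fold count. It read 1179 with solvent and 2511 with stimulation there, and 1697 and 1507 in shIKKE cells. The stimulated control array was thus the highest of the 4, and the remaining arrays lay within a narrower span. The stimulation difference was 1.08 in control cells, a 2.12-fold higher level, and -0.17 in shIKKE cells, with a difference of responses of -1.25. Its other probe set, 236749_at, was dim, at 36.4 and 65.2 in control cells and 28.0 and 62.0 in shIKKE cells. That probe set gave 0.65 and 0.86, without the difference between lines. It passed the filter through the stimulated arrays alone, and this filter favours higher stimulated levels in both lines. It therefore cannot settle whether the lines differed.

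MGA read 853 and 1430 in control cells and 1191 and 1104 in shIKKE cells, with differences of 0.74 and -0.11 for stimulation. A further MGA probe set, 235409_at, read 557 and 1143, then 651 and 1008, which is 1.02 and 0.62. A dimmer one gave 0.63 and -0.37. The 3 probe sets past the filter thus all read higher with stimulation in control cells and differed in direction in shIKKE cells. The remaining one stayed below the filter.

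MLX, whose start-site window holds an E box, read 2911 and 2958 in control cells and 3292 and 2536 in shIKKE cells. Its differences were 0.02 and -0.37 for stimulation and 0.18 and -0.22 between lines. With one median signal the stimulation difference in control cells turned to -0.27. MLX had 6 probe sets, 5 of them past the filter. The 4 brightest read lower with stimulation in shIKKE cells, from -0.64 to -0.33, and 0.02 to 0.36 higher in control cells. MLXIP, the Mondo partner of MLX, read 1592, 1469, 1451 and 1021, a stimulation difference of -0.12 in control cells and -0.5 in shIKKE cells. Its other probe set past the filter read 1029, 903, 1029 and 953. That probe set gave -0.19 and -0.11, without the larger difference in shIKKE cells. MLXIPL, the relative of MLXIP in liver and fat, was below the filter on all 4 arrays, at most 34.8.

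**Figure D3:**
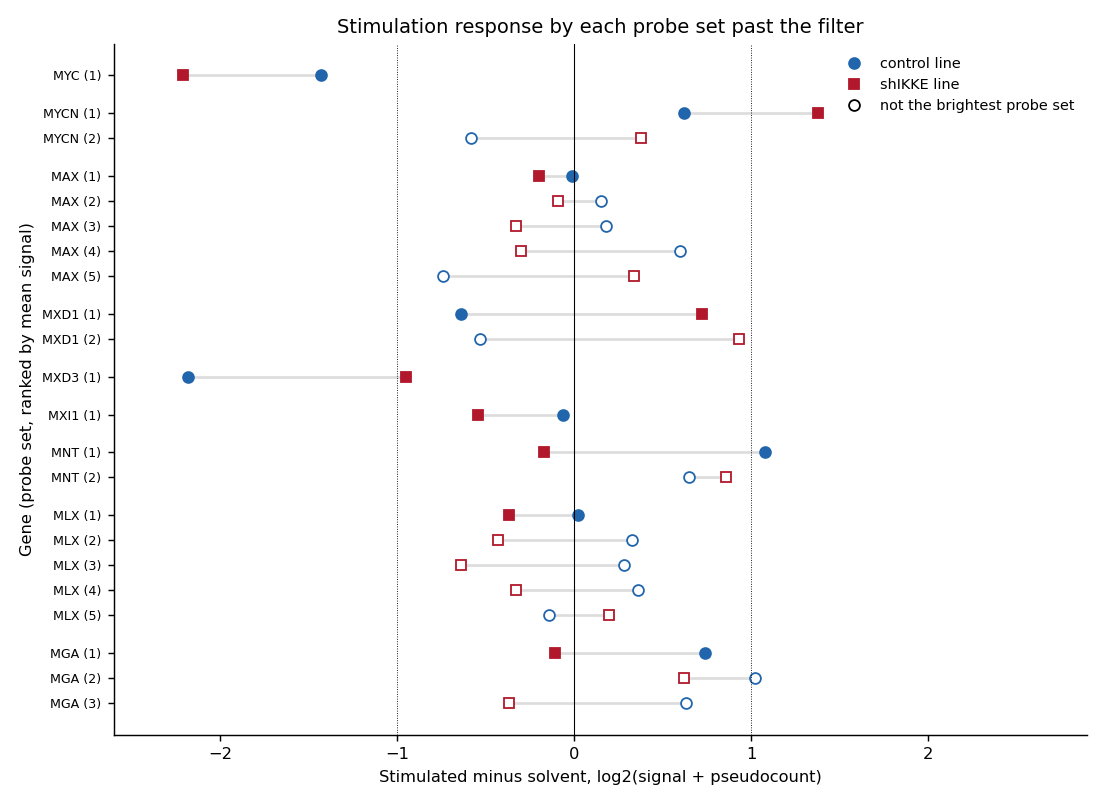
Stimulation difference (x, log2) of each of the 22 member probe sets past the filter (y, gene and rank by mean signal), in control cells (blue circles) and shIKKE line (red squares); filled symbols are the brightest probe sets, open symbols the others, and dotted lines mark 2-fold. Both MXD1 probe sets part in the same way between lines, at -0.64 and 0.72 and at -0.53 and 0.93, whereas those of MYCN and MNT differ from each other.

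The difference between the lines' responses was at least 2-fold in the higher direction for 2 of 9 members, MXD1 at 1.36 and MXD3 at 1.23, against 11.4% of all genes. It was 2-fold in the lower direction for MNT alone, at -1.25, against 4.67%. MYC had a difference of -0.78 and MYCN of 0.76. All genes split here into 1559 and 641, or 70.9% in the higher direction, and 56.6% with one median signal. None of these differences has a test, since each uses all 4 arrays once.

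Averages over both lines were fitted with limma. Its error for a gene is the disagreement of the lines' responses, moderated toward a variance drawn from all genes. For stimulation, 1 of 13717 genes was called at an adjusted p of at most 0.05, which is 0.00729%, and that gene was CRTAM. The limma fit gave 1887 genes at an unadjusted p under 0.05, where 686 would be expected by chance if no gene differed. No member was called. MYC had the strongest average stimulation effect, -1.82 ± 0.31 (SE), with a limma p of 0.00236 and an adjusted p of 0.145, and was lower in 2 of 2 lines. MXD3 had -1.56 ± 0.38 (SE), limma adjusted p 0.212, and MYCN 1 ± 0.3 (SE), limma adjusted p 0.287. For the line effect limma called 0 genes, or 0.0%, with 1000 at an unadjusted p under 0.05, against the same 686 expected by chance. MYCN had a line effect of 1.4 ± 0.3 (SE), limma adjusted p 0.564, and MXD1 of -1.22 ± 0.4 (SE), limma adjusted p 0.645. Letting the error variance follow the signal level in limma changed these calls: MYC, MXD3 and MYCN were then called for stimulation, with adjusted p of 1.13e-16, 7.9e-06 and 0.00193, and MYCN and MXD1 for the line, with 9.8e-06 and 0.0041. That fit called 1044 genes for stimulation and 232 for the line, and with 1 residual degree of freedom its error is taken mainly from other genes of like level.

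Genes whose pattern over the 4 arrays was most like that of MYC were ranked by the distance between centred log2 profiles. The nearest of 13716 were AIFM3 at 0.27, PLXNA2 at 0.28, C22orf15 and CRMP1 at 0.34 and SELPLG at 0.36. The first 4 were dim, with no signal above 85.2. Each passed the filter through the shIKKE solvent array alone. MYC was also highest on that array, so this filter favours a likeness to MYC among dim genes. SELPLG, the selectin ligand PSGL-1, was the brightest of them and read 1620 and 557 in control cells and 2651 and 737 in shIKKE cells. Of the members, MXD3 came nearest at rank 800, then MXI1 at 1950, and MYCN was among the farthest at rank 12959. The 4 arrays are the only points behind these distances, and likeness over them is a description.

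Proteins that act with the network were measured through lists. Of the SIN3 and histone deacetylase corepressors of MXD proteins, 11 of 13 were measured, and 0 differed by 2-fold with stimulation in either line. Their medians were -0.12 and -0.05, close to -0.07 and -0.01 over all genes. HDAC1, for example, read 17960, 15169, 17312 and 15414. The 1 corepressor past 2-fold between lines was SUDS3, a SIN3 subunit named here after its values were seen, at 2902 and 1277 with solvent, a difference of -1.18. Of MYC's coactivators and partners, 16 of 18 were measured, and none passed 2-fold in control cells, where 12 of 16 read above 0 with a median of 0.27. With one median signal that median was -0.02, while the median of all genes was -0.34. In shIKKE cells 1 was higher, the acetyltransferase EP300, which was likewise named after its values were seen. It read 1307 and 2471 in control cells, a difference of 0.91, and 1236 and 2736 in shIKKE cells, a difference of 1.14.

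MYC protein is short-lived, and 14 of the 15 listed genes of its turnover were measured. USP28, a deubiquitinase of MYC, was at least 2-fold lower with stimulation in both lines, reading 351 and 136 in control cells and 278 and 124 in shIKKE cells, or -1.28 and -1.09. Its other probe sets gave -0.38 and -0.6, and -2.2 and -0.13, the same direction with different sizes. FBXW7, the ubiquitin ligase subunit that marks MYC for degradation, read 2125 and 2541 in control cells and 1445 and 2607 in shIKKE cells, differences of 0.26 and 0.85. Its other probe sets gave 0.74 and 0.59, 0.58 and 0.01, and -0.78 and -0.03. The remaining turnover genes were within 2-fold in stimulation in both lines. Of 16 listed regulators of the MYC gene and its mRNA, 14 were measured and 0 passed 2-fold with stimulation in either line. PVT1, the noncoding RNA gene next to MYC, was dim, at 17.0 and 9.36 in control cells and 45.4 and 95.2 in shIKKE cells. Its line difference was 0.93 with solvent and 2.22 with stimulation, and its 1 probe set passed the filter through the shIKKE stimulated array alone. NOTCH1 read 653 and 1046 in control cells and 749 and 817 in shIKKE cells, differences of 0.67 and 0.12.

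The best known targets that MYC activates serve ribosome production. Of 25 listed genes of ribosome biogenesis and translation, 20 were measured. In control cells, where MYC was 2.69-fold lower with stimulation, 6 of the 20 were at least 2-fold higher, against 7.57% of all genes. Lower there were 0, against 6.44%. Of the 20, 19 read above 0, and the median was 0.62. With one median signal 3 were 2-fold higher and 15 read above 0. In shIKKE cells 0 passed 2-fold in either direction, against 10.3% of all genes higher and 2.68% lower, and the median was -0.17. Between lines with solvent, 6 were at least 2-fold higher in shIKKE cells, against 4.34% of all genes. All 20 read above 0, against 6357 of 13717 genes, and the median was 0.75, against -0.05. With stimulation the list's median was 0.0. The control solvent array was the lowest of the 4 for 19 of these 20 genes, and it is the baseline both of stimulation in control cells and of the line comparison with solvent. EGR1 and FOSB differed between the solvent arrays, and the part of the control solvent array in the list's values was not tested. The ratio of 5' to 3' signal of ACTB, a sign of RNA integrity and labelling, was also lowest there, at 0.244, and read 0.401, 0.339 and 0.266 on the others. Like the list's median as deposited, the ratio was higher with stimulation in control cells and lower with stimulation in shIKKE cells. It was also higher in shIKKE cells with solvent. Between the stimulated arrays the ratio was lower in shIKKE cells, at 0.266 against 0.401, while the list's median difference was 0.0. The part of this ratio was not tested. UTP20, a component of the small-subunit processome, read 851 there and 3625, 3178 and 3680 on the other arrays. RRP12, an export factor of ribosomal subunits, read 320 there and 1096, 1189 and 1145 on the others. The RNA polymerase I subunit POLR1B read 1229, then 3149, 3042 and 3146. The abundant nucleolar proteins nucleolin (NCL) and nucleophosmin (NPM1) differed less, NCL at 15632, 21095, 21216 and 18949 and NPM1 at 26684, 32214, 33190 and 27246.

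Set against the other line's solvent array, the list's stimulation median was -0.09 for the stimulated control array and 0.68 for the stimulated shIKKE array. The list's stimulation median in control cells and its line median with solvent kept their signs under quantile normalization and cyclic loess. In shIKKE cells the stimulation median of -0.17 became -0.01 and -0.03 under these, almost level. It was -0.02 by the median over probe sets and 0.07 without probe sets ending in _s_at or _x_at, so its direction depends on the processing. With one median signal the list's medians were 0.33 and -0.65 for stimulation and 0.73 and -0.21 between lines. For RRP12, 3 dimmer probe sets gave 1.22 in control and 0.59 in shIKKE cells, 0.75 and 0.57, and 0.01 and -0.39. The one at 0.75 and 0.57 passed the filter through the stimulated arrays alone, which favours this direction. No gene of the lists was called by limma over all genes. The E box was in 3 of the 16 ribosome genes with a start-site window, 18.8%, against 10.9% of 11032 genes past the filter with one.

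Of 29 listed genes of nucleotide, polyamine and energy metabolism, 28 were measured. With stimulation 1 was at least 2-fold higher in control cells, against 7.57% of all genes, and 0 in shIKKE cells, against 10.3%. The list's medians were 0.13 and -0.16. With one median signal those medians were -0.16 and -0.63, so the direction in control cells depends on the scaling. The gene past 2-fold was SLC7A5, a large amino acid transporter named after its values were seen, at 6199 and 13404 in control cells and 7177 and 13966 in shIKKE cells. Its stimulation differences were 1.11 and 0.96. SRM, spermidine synthase, read 3014 and 5000 in control cells and 7424 and 5666 in shIKKE cells. It was 1.3 higher in shIKKE cells with solvent, and its stimulation differences were 0.73 and -0.39. The E box was in 11 of 26 of these genes' windows, 42.3%.

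Of 15 listed cell cycle and growth targets, 13 were measured, and 1 was higher and 1 lower with stimulation in each line. Over all genes 7.57% were higher and 6.44% lower in control cells, and 10.3% and 2.68% in shIKKE cells. ID2, an inhibitor of helix-loop-helix factors, was the higher one, at 2798 and 5647 in control cells and 1354 and 5520 in shIKKE cells. Its differences were 1.01 and 2.02, and its other probe set gave 0.81 and 2.86. E2F2, an S phase transcription factor, was the lower one, at 2635 and 1232 in control cells and 1395 and 641 in shIKKE cells, or -1.09 and -1.11. Its dimmer probe sets gave -0.22 and 0.34, and -0.14 and 1.04. CCND2, the cyclin D2 gene, was near level with stimulation and higher in shIKKE cells, at 64.3 and 66.3 against 293 and 287, which is 1.97 and 1.91. The other CCND2 probe set gave line differences of -0.03 with solvent and 1.25 with stimulation. It passed the filter through the shIKKE stimulated array alone, which favours the higher value with stimulation. With one median signal 0 of the list were higher and 2 lower with stimulation in control cells, and 1 and 3 in shIKKE cells.

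**Figure D4:**
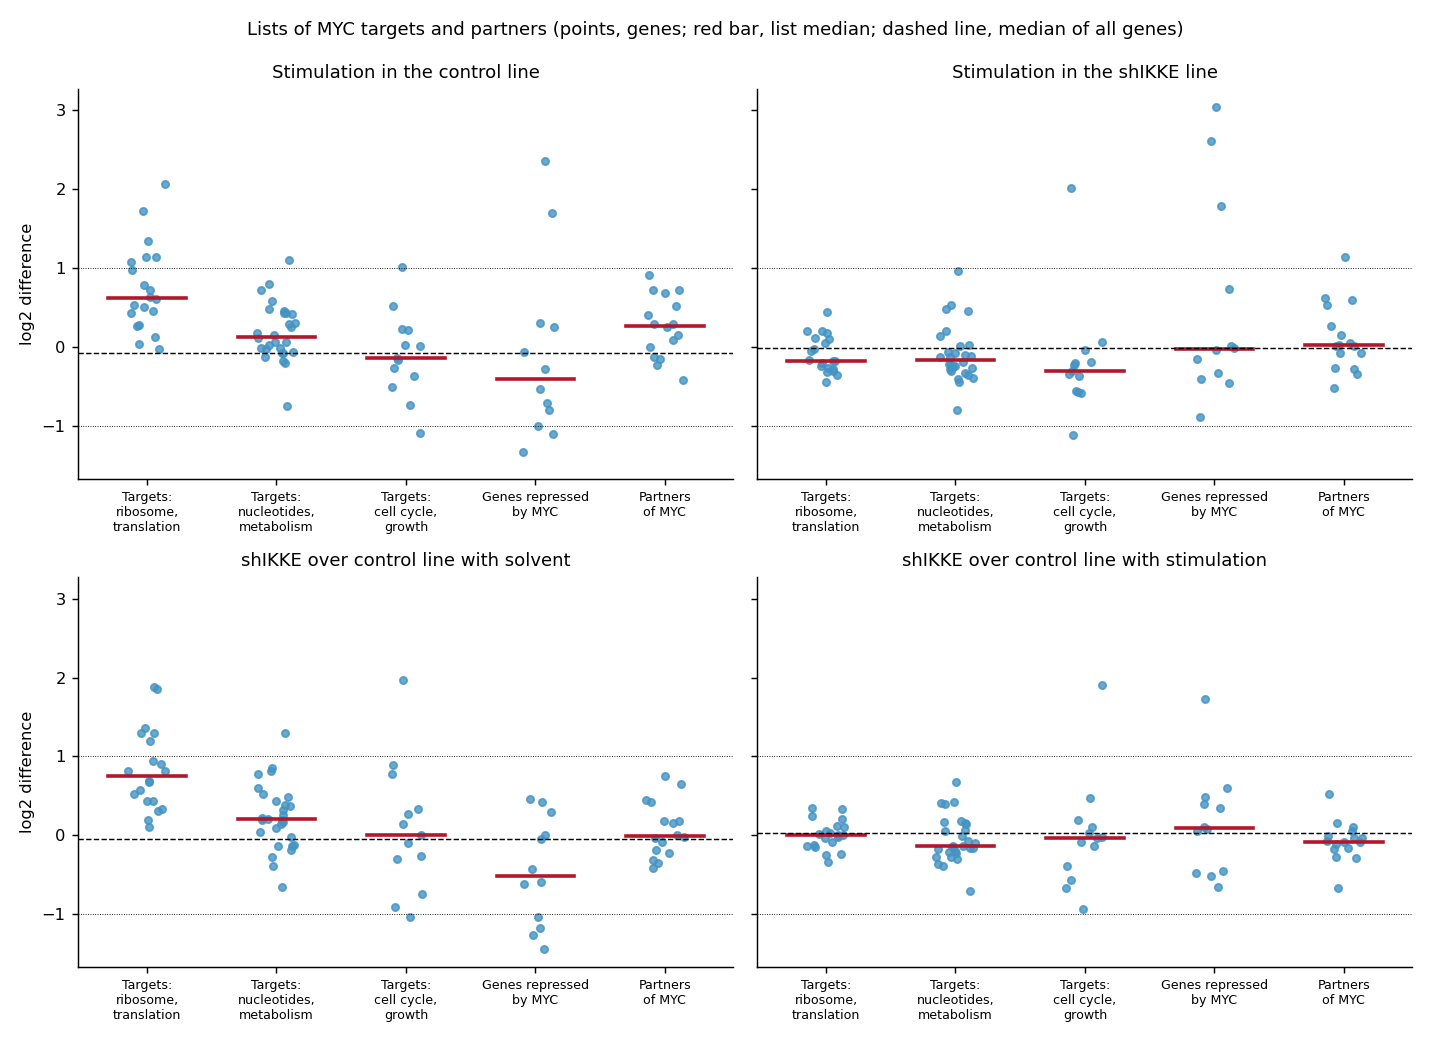
Log2 difference (y) of each measured gene of 5 lists (x) in the 4 comparisons; red bars are list medians, dashed lines the median of all genes and dotted lines 2-fold. The ribosome and translation targets lie at medians of 0.62 and 0.75 in the left panels, which share the control solvent array, and at -0.17 and 0.0 in the right panels.

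Of 14 listed genes that MYC is known to repress, 12 were measured. In control cells 2 were at least 2-fold higher with stimulation and 3 lower, with a median of -0.4. In shIKKE cells 3 were higher and 0 lower, with a median of -0.02. Over all genes 7.57% were higher and 6.44% lower in control cells, and 10.3% and 2.68% in shIKKE cells. With one median signal 2 of the list were higher and 5 lower in control cells, with a median of -0.63, and 3 and 1 in shIKKE cells, with a median of -0.48. By the median over probe sets 3 were higher and 1 lower in control cells, with a median of -0.19. CDKN1A, the cell cycle inhibitor p21, read 245 and 1312 in control cells and 101 and 935 in shIKKE cells, differences of 2.36 and 3.05. GADD45A, a stress-response gene, read 1268 and 4159, then 941 and 5822, or 1.7 and 2.61. In both genes both stimulated arrays were above both solvent arrays. GADD45B, its relative, read 618 and 594 in control cells and 219 and 790 in shIKKE cells, with stimulation differences of -0.06 and 1.79. Its 3 other probe sets gave -0.42 to -0.15 in control cells and 1.21 to 2.33 in shIKKE cells. NDRG1, a gene also driven by hypoxia, was highest on the control solvent array, at 1743, and read 685, 718 and 714 on the others.

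Targets of MLX and the Mondo proteins were measured for 7 of 9 listed genes. TXNIP and ARRDC4, the arrestins most tied to MLXIP, were dim. TXNIP read 80.3 and 38.0 in control cells and 128 and 77.7 in shIKKE cells, and its other probe sets were below the filter. ARRDC4 read 62.3 and 32.4, then 84.7 and 29.8. Both genes were lower in each stimulated array than in that line's solvent array. The differences were -0.86 and -0.63 for TXNIP and -0.72 and -1.17 for ARRDC4. The 1 probe set of ARRDC4 passed the filter through the solvent arrays alone, which favours this direction. Among all genes, 3.29% were at least 2-fold higher with stimulation in both lines, and of these targets KLF10 was. KLF10, also an early growth-response gene, read 6901 and 17179 in control cells and 1044 and 17419 in shIKKE cells, differences of 1.31 and 4.04. ARRDC3 read 113, 331, 281 and 310, lowest on the control solvent array, and its stimulation differences were 1.45 and 0.13.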

How the data were processed

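Total RNA of 4 Jurkat samples was hybridised to 4 single-colour oligonucleotide arrays, 1 per group. The values the authors deposited are intensities, MAS5 signals per the submitters' processing notes, for each probe set on each array. The MAS5 version and target are not given in the sources here. The 4 arrays had the same mean after trimming 2% at each end, so they had been scaled to one target. Low MAS5 signals scatter widely, and no detection calls were used. The table had 0 columns left out.

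Genes were named from the platform annotation where a probe set had 1 symbol. The pseudocount of 14.1 added before taking log2 is the 25th percentile of all signals. Where a gene had several probe sets, the brightest by mean log2 value stood for it. Single-array differences have no test. The limma 3.58.1 fit in R 4.3.3 (lmFit and eBayes, line plus stimulation, all 4 arrays) was two-sided with Benjamini-Hochberg adjustment over 13717 genes. It leaves 1 residual degree of freedom, and its p-values do not measure the spread between replicates. A check on simulated data used far less noise than these arrays show and larger changes than the members had. It therefore tested the code and not the fit to these data. Python 3.11.15, pandas 2.3.3, numpy 2.4.6 and matplotlib 3.10.9 did the rest.

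Members, 10 lists, tests and alternatives were chosen with earlier results of these data known. All members are named. From each list the text names up to 4 genes at least 2-fold the same way with stimulation in both lines, up to 3 between lines in both treatments, and up to 2 with the largest difference of responses past 2-fold. MYCL, MLXIP, MLXIPL, TXNIP, ARRDC4, PVT1, FBXW7 and IKBKE are always named, as are the 5 genes most like MYC. Other list genes are examples chosen after their values were seen. Alternatives changed the pseudocount, filter, scaling, probe set rule, baseline array and limma prior.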

Additional observations from a re-analysis of the deposited data

Results flagged for a closer look

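For 2 members the stimulation responses had opposite signs in the lines and differed by at least 2-fold, which could not be tested with 1 array per group. MXD1 read -0.64 in control cells and 0.72 in shIKKE cells, a difference of responses of 1.36 on the log2 scale. MNT read 1.08 and -0.17, a difference of -1.25, but its dimmer probe set read 0.65 and 0.86, with the same sign in both lines. That probe set passed the filter through the stimulated arrays alone, which favours this sign. MGA, at 0.74 and -0.11, and MLX, at 0.02 and -0.37, also had opposite signs, with differences under 2-fold. Of 140 genes in the lists, 10 met both conditions, or 7.14%, against 10.9% of all genes. Of these, 4 are named by the rule for named genes, and none of the differences was tested. PVT1 read -0.41 and 0.88, a difference of 1.29 from a probe set with no signal above 95.2. RRP12 read 1.73 and -0.05, a difference of -1.79. Of its 3 other probe sets, 2 were higher with stimulation in both lines, at 1.22 and 0.59 and at 0.75 and 0.57. The one at 0.75 and 0.57 passed the filter through the stimulated arrays alone, which favours this direction. SRM read 0.73 and -0.39, a difference of -1.12. GADD45B read -0.06 and 1.79, a difference of 1.84.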

How the results depend on the processing

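No paired analysis was possible because each group has 1 array and no replicate number to block on beyond the line term already in the limma fit, and leaving out an array leaves no residual degree of freedom. Of 423 member values under alternatives, 388 kept their direction and side of 2-fold or stayed near the value given, 11 fell below 2-fold, 8 passed it, 13 moved further and 3 reversed. All 3 reversals were MYCN, whose line difference with solvent was -0.01 by the median over probe sets and -1.03 without probe sets ending in _s_at or _x_at, and with stimulation -0.07 without them. They rest on a probe set that passed the filter through the control solvent array alone. MYC stayed past 2-fold under every pseudocount and scaling alternative, from -1.72 to -1.4 in control cells and from -2.68 to -2.09 in shIKKE cells. With the other line's solvent array as baseline it gave -2.14 and -1.5. The filter alternatives kept each member's brightest probe set, so they could not change its values. MYC, MXD3 and MXI1 had 1 probe set each, which the probe set alternatives kept whatever its ending, so those could not change them either. Such fixed values count among the 388.

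Counts of members changed as follows. Higher with stimulation in control cells were 0 with one median signal and 2 without _s_at or _x_at. Lower there was 1 with the shIKKE solvent array as baseline. Higher with stimulation in shIKKE cells were 0 with one median signal, the median over probe sets, or no _s_at or _x_at. Lower there were 2 after quantile normalization or cyclic loess, and 3 with one median signal or the control solvent array as baseline. Higher in shIKKE cells with solvent were 0 with the pseudocount at the median, one median signal, the median over probe sets, or no _s_at or _x_at, and with stimulation 0 under the last pair. Lower with solvent were 3 without _s_at or _x_at, and the difference of responses was then 2-fold higher for 3 members, MAX included at 1.08. The difference of responses was 2-fold lower for 2 members with one median signal and 0 by the median over probe sets. The limma stimulation fit called 1044 genes, 3 of them members, with a variance trend, and 0 with all probe sets, no pseudocount, no filter, cyclic loess or the median over probe sets. With the trend the line fit called 232 genes, 2 of them members. Beyond the construction of each alternative, the cause was not tested. Signals near the pseudocount limit what the dim probe sets of MYCN, MNT, PVT1, TXNIP and ARRDC4 can show.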
